A study of Mus musculus with 24 samples.

Results

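The genes described are 10 nucleic acid sensing genes of the cytosol and endosome, chosen by symbol for that role: Tmem173, Cgas, Ifi204, Trex1, Tlr3, Ddx58, Ifih1, Dhx58, Mavs and Tbk1. They were read from RNA sequencing of LLC1, a cell line of the mouse Lewis lung carcinoma, and are 10 of the 28328 genes with a value. The 8 groups were 4 treatments at 24 h and at 6 h, with 3 libraries each and 24 in all. Cells of the combination group received trametinib at 10 nM with cisplatin and pemetrexed at 2.5 µM each. The trametinib group had trametinib alone at 10 nM, the chemotherapy group had cisplatin and pemetrexed at 2.5 µM each, and untreated cells had 0.1% DMSO. All groups are the same cell line in culture, with no host cells. Cisplatin crosslinks DNA, pemetrexed blocks folate enzymes of nucleotide synthesis, and trametinib inhibits MEK, the kinase that activates ERK.

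DNA in the cytosol is bound by the enzyme cGAS, which makes the cyclic dinucleotide cGAMP, and cGAMP activates STING, the adaptor that Tmem173 encodes. Viral or misplaced RNA is bound by the helicases RIG-I (Ddx58) and MDA5 (Ifih1), which act through the mitochondrial adaptor MAVS, while TLR3 reads double-stranded RNA in endosomes. These routes meet at the kinase TBK1, which phosphorylates the transcription factor IRF3, and lead to interferon and chemokine genes such as Cxcl10. In tumour cells the pathway is known for its response to DNA damage and for raising chemokines that draw T cells.

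Levels are TPM, a length-corrected share of all transcripts in a library, summed over the transcripts of a gene. A difference is that of group means of log2(TPM + 1), with its standard error, between groups of 3 libraries. A gene is said to have changed, risen or fallen where its Benjamini-Hochberg adjusted p was under 0.05 in limma, fitted over 12581 genes that reached 1 TPM in at least 3 libraries. The pseudocount of 1 makes the changes of low genes look smaller. The labels do not state that the triplicates were separate cultures. A p-value or standard error thus reflects no more than the spread of libraries within groups, possibly a technical one. That spread was pooled over all 8 groups and adjusted towards that of other genes. In a bulk sample, fewer cells that express a gene and less RNA per cell cannot be told apart.

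Promoter windows are shown for 3 RNA sensor genes. Ddx58 and Tlr3 were higher in all 4 groups that received trametinib, alone or in the combination, whereas Ifih1 stayed below 1 TPM in every library. Tlr3 reached 1 TPM only in treated libraries, so it was tested through the groups where it is high. Its differences are thus a description. Ifi204, Trex1 and Tbk1 were also higher in the 4 groups with trametinib. For Tbk1 with trametinib alone at 6 h, that call was at the threshold (limma adjusted p = 0.0496) and ended under several alternatives. The windows of these genes are not shown. A link between these motifs and the response was not tested. Each runs from 250 bases before to 50 bases after the RefSeq start, in the GRCm38.p6 build, read 5′ to 3′ on the gene's own strand, which is the minus strand of the chromosome for all 3. Capitals mark matches on either strand to the interferon-stimulated response element core, written GAAA, any 2 bases and GAAA, or to the shorter interferon regulatory factor core AANNGAAA, which lies inside every match of the longer core.
Ddx58 (chr4:40239776-40240075): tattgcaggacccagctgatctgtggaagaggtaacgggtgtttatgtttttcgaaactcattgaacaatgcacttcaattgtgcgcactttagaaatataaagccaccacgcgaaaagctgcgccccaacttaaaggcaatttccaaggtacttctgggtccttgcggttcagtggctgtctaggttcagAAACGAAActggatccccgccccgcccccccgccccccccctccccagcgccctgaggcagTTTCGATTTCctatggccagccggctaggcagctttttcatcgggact
Tlr3 (chr8:45410331-45410630): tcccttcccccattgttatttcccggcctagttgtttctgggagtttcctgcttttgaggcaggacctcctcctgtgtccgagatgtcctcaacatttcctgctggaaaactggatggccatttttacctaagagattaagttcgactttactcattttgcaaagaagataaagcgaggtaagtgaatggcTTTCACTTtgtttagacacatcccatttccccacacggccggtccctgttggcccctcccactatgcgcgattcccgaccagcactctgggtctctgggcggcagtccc
Ifih1 (chr2:62646206-62646505): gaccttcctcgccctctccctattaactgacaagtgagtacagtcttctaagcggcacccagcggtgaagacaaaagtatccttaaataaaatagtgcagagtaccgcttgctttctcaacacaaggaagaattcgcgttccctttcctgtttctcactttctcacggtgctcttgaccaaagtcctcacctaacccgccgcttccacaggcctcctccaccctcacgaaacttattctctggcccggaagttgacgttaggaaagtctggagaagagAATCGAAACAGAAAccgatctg
Ddx58 held the longer core on the opposite strand at position 2, counted from the RefSeq start, and the shorter core at position -59. Tlr3 held the shorter core at position -59, on the opposite strand. Ifih1 held the longer core at position 32 and the shorter one also at position 28. Of all 32851 promoter windows of this length, 3.44% held the longer core and 23.9% the shorter one. The windows of Mavs, Trex1 and Cgas held no match to these letters, nor to the STAT element TTCNNNGAA, the AP-1 site TGANTCA or the E-box CACGTG. The Tbk1 window held the E-box at position 5 and none of the other 4 motifs. Windows were matched for 7 of the 10 genes. Tmem173, Ifi204 and Dhx58 had none.

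The libraries were alike within groups, with correlations of 0.993 to 0.997 on the log2 scale, and no pair held identical values. The number of reads behind a TPM value is unknown. As a check of the cell line, the keratin genes Krt8 and Krt18 averaged 135.8 and 222.8 TPM and the mesenchymal gene Vim 3761 TPM, while the epithelial adhesion genes Epcam and Cdh1 averaged 0.000685 and 0.0749 TPM. Of 12 macrophage and monocyte markers, Cd68, Cd14 and Lyz2 reached 1 TPM, and Adgre1 and C1qa were listed at 0 in every library. The summed level of the 12 lay between 30.9 and 35.1 TPM with the combination at 24 h, 13.3 and 14.6 TPM with trametinib, 50.1 and 54.2 TPM with chemotherapy and 22.3 and 28.1 TPM in untreated cells. The macrophage genes Csf1r and Itgam averaged 0.0208 and 0.00907 TPM. The 4 B cell and 5 lung epithelial markers did not reach 1 TPM in any library, 1 of 6 T and NK cell markers did (Cd3d), 1 of 4 endothelial markers (Pecam1), and 3 of 6 dendritic cell markers.

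The 10 genes differed widely in level. Tmem173, Mavs and Tbk1 were abundant, with means over the 24 libraries of 49.4, 37.5 and 30.1 TPM. Ddx58, Ifi204 and Trex1 averaged 15.3, 14.3 and 8.03 TPM, and Dhx58 and Tlr3 averaged 1.87 and 1.38 TPM. Cgas (0.038 to 0.21 TPM) and Ifih1 (0.0079 to 0.266 TPM) were below the filter in all 24 libraries and were not tested. The ratio of the highest to the lowest group mean was 11.1 for Ifi204, 5.67 for Trex1, 4.64 for Tlr3 and 3.42 for Ddx58, and between 1.48 and 1.90 for Tmem173, Mavs, Dhx58 and Tbk1.

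**Figure D1:**
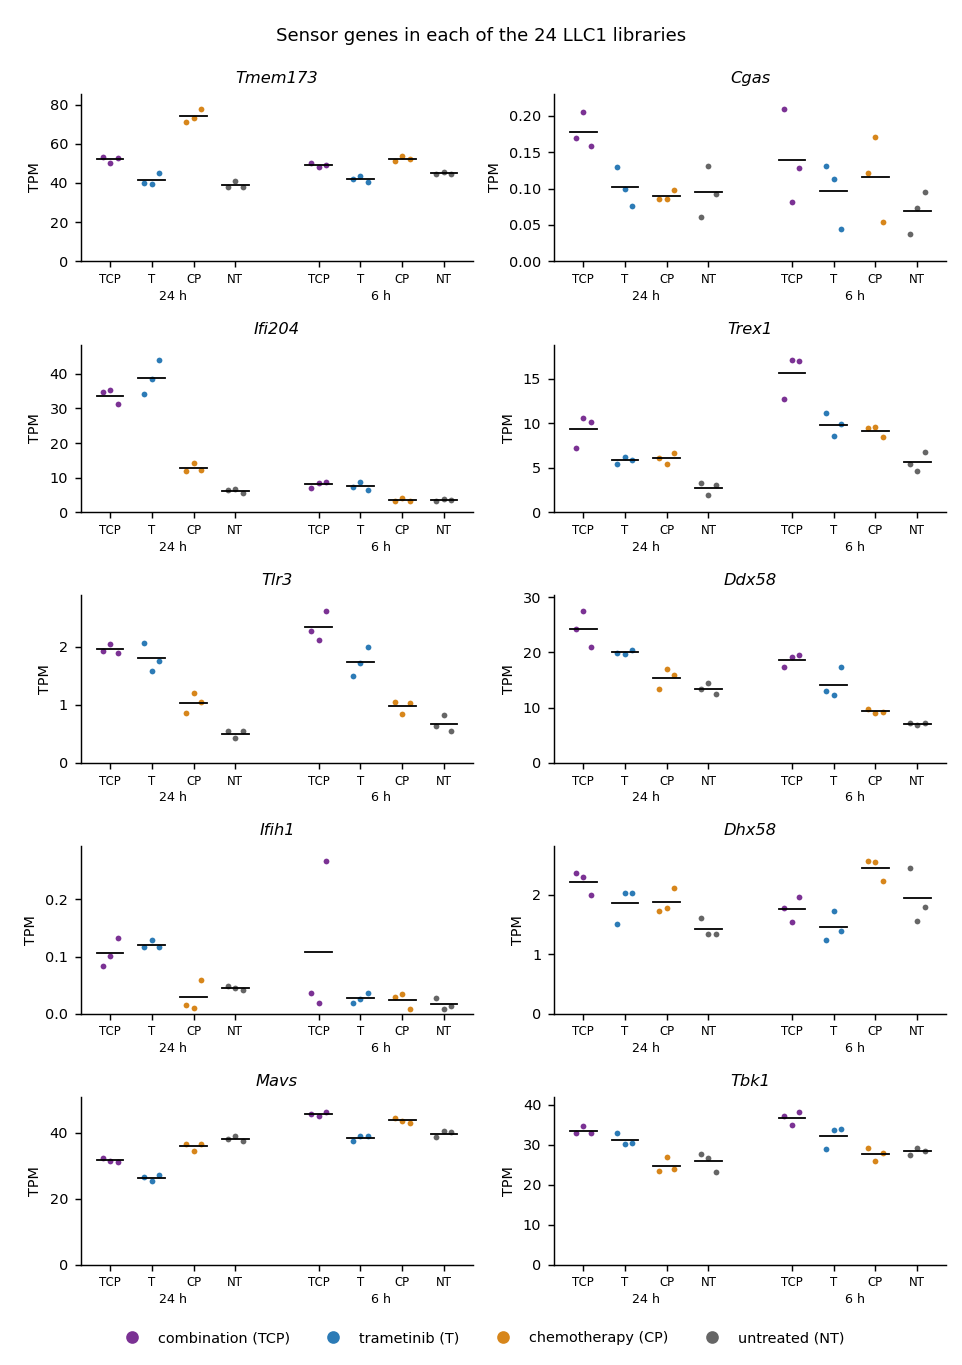
TPM of the 10 sensor genes in each library (points) with the group mean (line), for combination (TCP), trametinib (T), chemotherapy (CP) and untreated (NT) cells at 24 h and 6 h, on an axis of its own for each gene. Tmem173 stands highest with chemotherapy at 24 h (74.2 TPM), Ifi204 with trametinib at 24 h (39.0 TPM) and Trex1 with the combination at 6 h (15.6 TPM).

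Tmem173 (ENSMUSG00000024349.10, chromosome 18, 35733679 to 35740554, minus strand, GRCm38), the STING gene, responded most to chemotherapy at 24 h. It had 53.4, 49.98 and 52.8 TPM in combination libraries at 24 h, 40.0, 39.3 and 44.9 TPM in trametinib libraries, 71.3, 73.4 and 77.8 TPM in chemotherapy libraries and 38.1, 41.1 and 37.8 TPM in untreated libraries. The chemotherapy libraries were the highest of the 4 groups and the combination libraries came next, with no overlap, while trametinib and untreated libraries overlapped. Tmem173 rose by 0.91 ± 0.05 with chemotherapy (adjusted p = 1.25e-11) and by 0.41 ± 0.05 with the combination (adjusted p = 6.1e-07). Trametinib alone gave 0.08 ± 0.05 (adjusted p = 0.154, 95% interval -0.02 to 0.19). Against chemotherapy the combination was lower (-0.50 ± 0.05, adjusted p = 7.47e-08). Other marker lists were also highest with chemotherapy at 24 h, the macrophage list as given above and 2 more. Most of the macrophage sum came from Cd68 (3.68 to 39.3 TPM over the 24 libraries) and Cd14 (6.29 to 20.5 TPM). The summed endothelial markers, nearly all Pecam1, lay between 5.27 and 6.87 TPM with the combination, 3.46 and 4.46 TPM with trametinib, 7.10 and 12.9 TPM with chemotherapy and 2.62 and 3.61 TPM in untreated cells. The keratin and epithelial adhesion list lay between 374.3 and 394.8 TPM with the combination, 220.4 and 257 TPM with trametinib, 451.3 and 489.1 TPM with chemotherapy and 323.4 and 336.7 TPM in untreated cells. The part of these lists in the Tmem173 result was not tested.

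At 6 h the Tmem173 levels were 50, 48.3 and 49.0 TPM with the combination, 42.0, 43.7 and 40.5 TPM with trametinib, 51.4, 53.8 and 52.3 TPM with chemotherapy and 44.7, 45.4 and 44.7 TPM in untreated cells. The gene rose by 0.22 ± 0.05 with chemotherapy (adjusted p = 0.00293). The combination gave 0.12 ± 0.05 (adjusted p = 0.0379), where the median of all genes stood at 0.11, and after a median-ratio rescaling of the libraries the value was -0.019. That call also ended without any of the 3 untreated libraries (0.12, 0.13 and 0.12) or without combination replicate 1 (0.11) or 3 (0.13). Trametinib alone gave -0.09 ± 0.05 (adjusted p = 0.121), and it passed the test after the rescaling (-0.21). In untreated cells Tmem173 was lower at 24 h than at 6 h (-0.20 ± 0.05, adjusted p = 0.0017).

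Cgas (ENSMUSG00000032344.17, chromosome 9, 78430526 to 78443237, minus strand), the gene of the DNA-binding enzyme upstream of STING, was near 0 in LLC1. At 24 h it had 0.170, 0.205 and 0.159 TPM with the combination, 0.130, 0.0991 and 0.0759 TPM with trametinib, 0.0855, 0.0857 and 0.0987 TPM with chemotherapy and 0.0604, 0.131 and 0.0926 TPM in untreated cells. In the gene sum the combination libraries were above the other 9 libraries of 24 h, at levels where the reads behind a value are unknown. The protein-coding transcript Cgas-202 held 75.2% of that sum with the combination (0.134 ± 0.039 TPM, SD of 3 libraries). Its share was 94.75% with trametinib and 100% with chemotherapy and in untreated cells of 24 h. At 6 h the group means lay between 0.0685 and 0.140 TPM, and the libraries of every treated group overlapped those of untreated cells. Of the 31-base stretches of its transcripts, 6.80% also occur in other genes.

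Ifi204 (ENSMUSG00000073489.6, chromosome 1, 173747293 to 173766943, minus strand) encodes p204, a protein of the HIN-200 family related to human IFI16, which binds DNA. It had the widest range of the 10 genes. At 24 h the values were 34.6, 35.3 and 31.4 TPM with the combination, 34.3, 38.5 and 44.1 TPM with trametinib, 11.8, 14.3 and 12.1 TPM with chemotherapy and 6.43, 6.82 and 5.49 TPM in untreated cells. Combination and trametinib libraries overlapped, and all 6 were above the chemotherapy libraries, which were in turn above the untreated ones. Ifi204 rose by 2.26 ± 0.12 with the combination (adjusted p = 2.87e-12), by 2.46 ± 0.12 with trametinib (adjusted p = 1.21e-12) and by 0.92 ± 0.12 with chemotherapy (adjusted p = 1.34e-06). The combination exceeded chemotherapy by 1.34 ± 0.12 (adjusted p = 1.18e-08) and differed from trametinib by -0.20 ± 0.12 (adjusted p = 0.176, 95% interval -0.44 to 0.05).

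At 6 h Ifi204 had 6.91, 8.33 and 8.85 TPM with the combination, 7.39, 8.60 and 6.29 TPM with trametinib, 3.26, 4.20 and 3.26 TPM with chemotherapy and 3.34, 3.67 and 3.48 TPM in untreated cells. The trametinib-treated groups were above the other 6 libraries without overlap. The rise was 1.00 ± 0.12 with the combination (adjusted p = 4.15e-07) and 0.90 ± 0.12 with trametinib (adjusted p = 2.23e-06), and chemotherapy gave 0.02 ± 0.12 (adjusted p = 0.934). In untreated cells Ifi204 was higher at 24 h than at 6 h by 0.68 ± 0.12 (adjusted p = 4.5e-05). At 24 h the sum of 5 mesenchymal genes of the cell line was also highest in the groups with trametinib. It was 12050 to 14570 TPM with the combination, 15230 to 15850 TPM with trametinib, 7873 to 8042 TPM with chemotherapy and 7484 to 8170 TPM in untreated cells. S100a4 and Vim made up most of this sum. Over the 24 libraries S100a4 ranged from 3225 to 11100 TPM and Vim from 3296 to 4478 TPM. The summed macrophage markers were lowest with trametinib. The part of either list in the Ifi204 result was not tested.

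Ifi204 is uncertain as a single gene, because 34.6% of the 31-base stretches of its transcript also occur in other genes, chiefly its family members Ifi211, Mndal and Ifi207. Ifi211 averaged 63.7 ± 2.7 TPM with the combination at 24 h, 63.3 ± 5.9 TPM with trametinib, 31.9 ± 3.1 TPM with chemotherapy and 19.7 ± 1.4 TPM in untreated cells (SD, n = 3 each). Its rise was 1.65 ± 0.073 with the combination, 1.63 ± 0.073 with trametinib and 0.67 ± 0.073 with chemotherapy. Mndal averaged 4.89, 2.69, 1.27 and 0.412 TPM in combination, trametinib, chemotherapy and untreated cells of 24 h, and Ifi203 averaged 8.44, 5.95, 3.05 and 0.965 TPM. Neither reached 1 TPM in 3 untreated libraries, so both were tested only through treated groups. For both, the combination libraries were above the trametinib libraries (0.68 ± 0.079 for Mndal, adjusted p = 8.64e-07, and 0.44 ± 0.11 for Ifi203, adjusted p = 0.00262). Another relative, the inflammasome sensor gene Aim2, was lower with trametinib at 24 h (-0.59 ± 0.10, adjusted p = 5.08e-05).

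**Figure D2:**
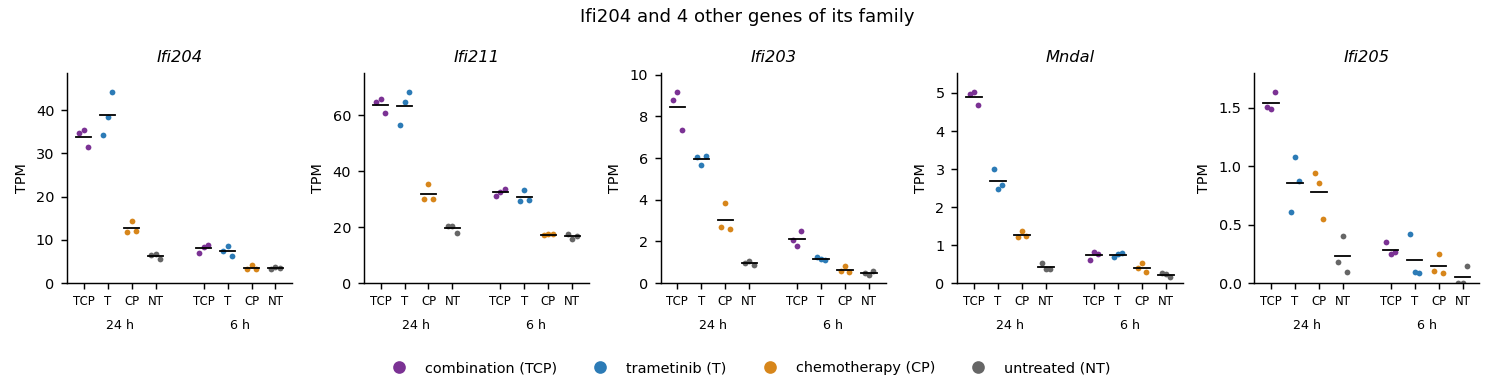
TPM of Ifi204 and of Ifi211, Ifi203, Mndal and Ifi205 in each library (points) with the group mean (line), by treatment at 24 h and 6 h. All 5 genes stand higher in combination and trametinib cells of 24 h than in untreated cells of 24 h, with Ifi211 at 63.7 TPM in combination cells and 63.3 TPM in trametinib cells.

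Trex1 (ENSMUSG00000049734.9, chromosome 9, 109057933 to 109059734, minus strand) encodes the exonuclease that degrades DNA in the cytosol and so limits cGAS. It was higher with every treatment at both times, and the combination gave the highest values. At 24 h Trex1 stood at 7.24, 10.6 and 10.1 TPM with the combination, 5.45, 6.17 and 5.84 TPM with trametinib, 6.05, 5.38 and 6.67 TPM with chemotherapy and 3.27, 1.92 and 3.08 TPM in untreated cells. The combination libraries were above those of either part, the parts overlapped each other, and all were above the untreated libraries. Trex1 rose by 1.46 ± 0.16 with the combination (adjusted p = 1.17e-07), by 0.88 ± 0.16 with trametinib (adjusted p = 8.08e-05) and by 0.92 ± 0.16 with chemotherapy (adjusted p = 4.92e-05).

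At 6 h Trex1 had 12.8, 17.1 and 17.02 TPM with the combination, 11.1, 8.54 and 9.93 TPM with trametinib, 9.47, 9.59 and 8.45 TPM with chemotherapy and 5.47, 4.64 and 6.81 TPM in untreated cells, in the same order of groups and with the parts again overlapping. The rises were 1.33 ± 0.16 (adjusted p = 5.18e-07), 0.71 ± 0.16 (adjusted p = 0.00071) and 0.63 ± 0.16 (adjusted p = 0.00636) for combination, trametinib and chemotherapy. Untreated cells of 24 h were lower than those of 6 h (-0.83 ± 0.16, adjusted p = 0.000145). Trex1 lies within Atrip on the same strand, and 97.6% of its 31-base stretches also occur in Atrip transcripts, so its value is uncertain. Atrip, a DNA damage checkpoint gene, averaged 10.7 to 11.6 TPM in the 4 groups of 24 h and 12.8 to 16.3 TPM in those of 6 h. It passed the test in none of the 15 comparisons that involve a treatment (adjusted p between 0.0941 and 0.934). In untreated cells Atrip was lower at 24 h than at 6 h (-0.34 ± 0.1, adjusted p = 0.00705), the direction in which Trex1 differed. The transcript Trex1-201 held 21.2% of the Trex1 sum, and its other transcript held 78.8%. Libraries of a single group divided the sum unevenly, as in chemotherapy cells of 6 h, where Trex1-201 had 4.19 ± 3.66 TPM (SD, n = 3).

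Tlr3 (ENSMUSG00000031639.12, chromosome 8, 45395665 to 45411080, minus strand), the endosomal receptor for double-stranded RNA, was low throughout. It reached 1 TPM in 16 libraries, all of them treated, so it was tested only because of the groups in which it is high. Its 24 h levels were 1.92, 2.05 and 1.89 TPM with the combination, 2.07, 1.58 and 1.76 TPM with trametinib, 0.866, 1.198 and 1.05 TPM with chemotherapy and 0.542, 0.421 and 0.546 TPM in untreated cells. The trametinib-treated groups overlapped each other and were above chemotherapy, which was above untreated cells. The rise was 0.98 ± 0.093 with the combination (adjusted p = 2.02e-08), 0.90 ± 0.093 with trametinib (adjusted p = 8.57e-08) and 0.44 ± 0.093 with chemotherapy (adjusted p = 0.000447).

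At 6 h Tlr3 had 2.27, 2.11 and 2.62 TPM with the combination, 1.49, 1.72 and 2.00 TPM with trametinib, 1.05, 0.849 and 1.04 TPM with chemotherapy and 0.638, 0.821 and 0.554 TPM in untreated cells. All 4 groups stood apart without overlap. It rose by 1.00 ± 0.093 with the combination (adjusted p = 1.98e-08). The rise with trametinib alone was 0.71 ± 0.093 (adjusted p = 2.4e-06). Chemotherapy gave 0.25 ± 0.093 (adjusted p = 0.0595), which passed with a pseudocount of 0.5 (0.34) or 0.1 (0.49), after rescaling (0.26), with no trend in the variance model (0.25) and without untreated replicate 2 (0.31). Against trametinib the combination was higher by 0.29 ± 0.093 (adjusted p = 0.0356), a call that ended with either smaller pseudocount, in a fit of the 6 h libraries alone, without trametinib replicate 1 (0.22) or 2 (0.28), and without combination replicate 1 (0.30) or 3 (0.23). A predicted gene on the other strand, Gm45542, shares 6.10% of the 31-base stretches of Tlr3. The libraries were stranded, but whether the quantification used strand was not stated.

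Ddx58 (ENSMUSG00000040296.15, chromosome 4, 40203773 to 40239828, minus strand) encodes RIG-I, the helicase that detects triphosphate-ended RNA. It increased with trametinib at both times and showed its highest level with the combination at 24 h. At 24 h Ddx58 stood at 24.3, 27.5 and 20.9 TPM with the combination, 19.9, 19.8 and 20.5 TPM with trametinib, 13.4, 17.03 and 15.9 TPM with chemotherapy and 13.4, 14.5 and 12.4 TPM in untreated cells. Chemotherapy and untreated libraries overlapped, trametinib libraries were above both, and combination libraries were above those of trametinib by a small margin. Ddx58 rose by 0.80 ± 0.11 with the combination (adjusted p = 2.09e-06) and by 0.55 ± 0.11 with trametinib (adjusted p = 0.000205). Chemotherapy gave 0.19 ± 0.11 (adjusted p = 0.145), and it passed without its replicate 1 (0.28).

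At 6 h Ddx58 had 17.3, 19.2 and 19.5 TPM with the combination, 12.9, 12.3 and 17.3 TPM with trametinib, 9.74, 9.04 and 9.24 TPM with chemotherapy and 7.19, 6.88 and 7.22 TPM in untreated cells. All 4 groups were in that order, and none overlapped, though the highest trametinib library came within 0.1 TPM of the lowest combination library. The gene rose by 1.28 ± 0.11 with the combination (adjusted p = 5.04e-09), by 0.89 ± 0.11 with trametinib (adjusted p = 9.08e-07) and by 0.35 ± 0.11 with chemotherapy (adjusted p = 0.0212). The chemotherapy call ended without untreated replicate 2 (0.33) or chemotherapy replicate 1 (0.32) and with protein-coding transcripts alone (0.19). Untreated cells of 24 h were higher than those of 6 h by 0.83 ± 0.11 (adjusted p = 1.79e-06). Of the Ddx58 sum, 49.4% came from protein-coding transcripts, chiefly Ddx58-201 at 42.4%, and 23.4% from the non-coding Ddx58-205. With coding transcripts alone, chemotherapy at 24 h also passed the test (0.38, adjusted p = 0.000349).

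Ifih1 (ENSMUSG00000026896.14, chromosome 2, 62595798 to 62646255, minus strand), the gene of MDA5, which binds long double-stranded RNA, was close to 0. At 24 h Ifih1 stood at 0.0837, 0.102 and 0.133 TPM with the combination, 0.117, 0.129 and 0.117 TPM with trametinib, 0.0160, 0.0107 and 0.0591 TPM with chemotherapy and 0.0478, 0.0451 and 0.0411 TPM in untreated cells. The 6 trametinib-treated libraries were above the other 6. At 6 h 11 of the 12 libraries were below 0.04 TPM, and combination replicate 3 had 0.266 TPM. Coding transcripts held 35.5% of this small sum.

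Dhx58 (ENSMUSG00000017830.15, chromosome 11, 100694884 to 100704271, minus strand) encodes LGP2, a helicase of the RIG-I family without a signalling domain. It changed little. Its 24 h levels were 2.36, 2.30 and 1.99 TPM with the combination, 1.503, 2.03 and 2.03 TPM with trametinib, 1.73, 1.77 and 2.12 TPM with chemotherapy and 1.61, 1.34 and 1.34 TPM in untreated cells. The combination and chemotherapy libraries were above the untreated ones, and trametinib libraries overlapped them. Dhx58 rose with the combination by 0.41 ± 0.11 (adjusted p = 0.00329), and gave 0.23 ± 0.11 with trametinib (adjusted p = 0.0819) and 0.24 ± 0.11 with chemotherapy (adjusted p = 0.068). Those 2 values passed without trametinib replicate 1 of 24 h (0.32) and without untreated replicate 1 of 6 h (0.24), and with coding transcripts alone (0.23 and 0.39).

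At 6 h Dhx58 had 1.78, 1.551 and 1.96 TPM with the combination, 1.24, 1.73 and 1.38 TPM with trametinib, 2.56, 2.55 and 2.24 TPM with chemotherapy and 2.46, 1.57 and 1.79 TPM in untreated cells. No treatment passed against untreated cells, whose libraries overlapped all 3 treated groups. The values were -0.08 ± 0.11, -0.26 ± 0.11 and 0.24 ± 0.11 for combination, trametinib and chemotherapy (adjusted p = 0.568, 0.0579 and 0.122). Trametinib passed after rescaling (-0.33), with no trend in the variance model (-0.26), and without untreated replicate 2 (-0.35), trametinib replicate 2 (-0.34) or trametinib replicate 1 of 24 h (-0.26). Chemotherapy passed without untreated replicate 1 (0.36). The combination was lower than chemotherapy (-0.32 ± 0.11, adjusted p = 0.019), a call that ended without chemotherapy replicate 1 (-0.30) or 2 (-0.30) or combination replicate 2 (-0.26), and the sign turned with coding transcripts alone (0.035). Those transcripts held 58.3% of the Dhx58 sum, and with them the combination was higher than untreated cells (0.24, adjusted p = 0.0357). Other genes share 3.76% of its 31-base stretches, chiefly the antisense gene Dhx58os.

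Mavs (ENSMUSG00000037523.13, chromosome 2, 131234063 to 131248025, plus strand), the mitochondrial adaptor gene of RIG-I and MDA5, was the member that fell with trametinib. Its 24 h levels were 32.2, 31.5 and 31.2 TPM with the combination, 26.5, 25.4 and 27.2 TPM with trametinib, 36.6, 34.5 and 36.6 TPM with chemotherapy and 38.2, 39.0 and 37.4 TPM in untreated cells. The 4 groups did not overlap, with trametinib lowest and untreated cells highest. Mavs was lower with the combination (-0.27 ± 0.037, adjusted p = 3.36e-06) and with trametinib (-0.52 ± 0.037, adjusted p = 4.04e-10). Chemotherapy gave -0.09 ± 0.037 (adjusted p = 0.0467). That call ended without untreated replicate 1 (-0.09) or 2 (-0.07), without chemotherapy replicate 2 (-0.06) and, at an unmoved value, without any of 13 libraries of other groups. It also ended with no trend in the variance model, in a fit of the 24 h libraries alone and with coding transcripts alone (-0.03).

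At 6 h Mavs had 45.7, 45.2 and 46.2 TPM with the combination, 37.5, 39.1 and 38.9 TPM with trametinib, 44.5, 43.6 and 43.0 TPM with chemotherapy and 38.6, 40.4 and 40.1 TPM in untreated cells. Here the combination and chemotherapy libraries were above the others, and trametinib and untreated libraries overlapped. The combination raised it by 0.20 ± 0.037 (adjusted p = 0.000115), where the median of all genes was 0.11, and after rescaling the value was 0.055 and no longer passed. Chemotherapy raised it by 0.14 ± 0.037 (adjusted p = 0.0108), a call that ended without untreated replicate 1 (0.12), and trametinib gave -0.04 ± 0.037 (adjusted p = 0.328), which passed after rescaling (-0.16). The transcripts Mavs-201 and Mavs-202 held 71.6% and 23.1% of the sum. Mavs-202 made up 15.9%, 12.4%, 17.6% and 11.9% of it in combination, trametinib, chemotherapy and untreated cells of 24 h. At 6 h its shares were 27.6%, 32.5%, 32.95% and 26.6% in the same groups.

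**Figure D3:**
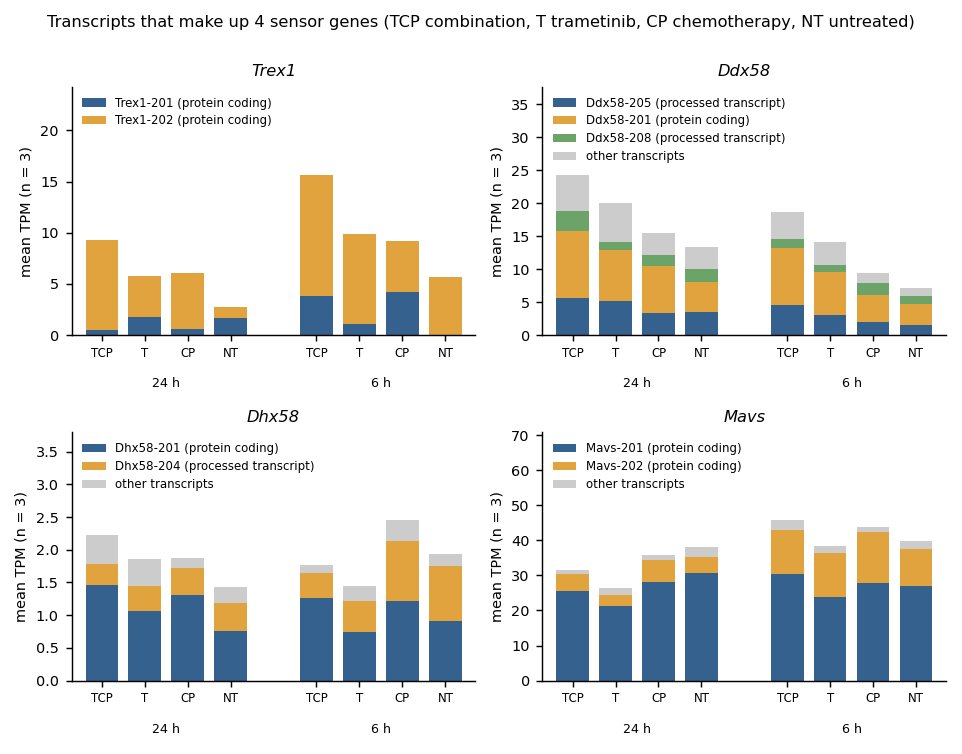
Mean TPM of the transcripts of Trex1, Ddx58, Dhx58 and Mavs that hold at least 10% of the gene's sum, stacked, with other transcripts in grey, by treatment at 24 h and 6 h (n = 3 libraries each, bars start at 0). Mavs-202 takes 11.9% to 17.6% of the Mavs sum at 24 h and 26.6% to 32.95% at 6 h. The division of Trex1 between its 2 transcripts varies between groups and also among libraries of a single group. With chemotherapy at 6 h, Trex1-201 had 4.19 ± 3.66 TPM (SD), so the group differences in this division are uncertain.

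Tbk1 (ENSMUSG00000020115.3, chromosome 10, 121546455 to 121586787, minus strand), the gene of the kinase on which these routes meet, was higher with trametinib and not with chemotherapy. Its 24 h levels were 32.98, 34.6 and 33.05 TPM with the combination, 33, 30.1 and 30.4 TPM with trametinib, 23.5, 27.01 and 23.8 TPM with chemotherapy and 27.8, 26.8 and 23.3 TPM in untreated cells. The trametinib-treated groups were above the other 6 libraries. Tbk1 rose by 0.36 ± 0.073 with the combination (adjusted p = 0.000226) and by 0.26 ± 0.073 with trametinib (adjusted p = 0.00481), and chemotherapy gave -0.06 ± 0.073 (adjusted p = 0.482, 95% interval -0.21 to 0.09).

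At 6 h Tbk1 had 37.1, 34.9 and 38.1 TPM with the combination, 28.8, 33.6 and 34.0 TPM with trametinib, 29.2, 25.99 and 27.97 TPM with chemotherapy and 27.4, 29.1 and 28.5 TPM in untreated cells. The combination stood above the other 9 libraries. It raised Tbk1 by 0.36 ± 0.073 (adjusted p = 0.000252), and chemotherapy gave -0.03 ± 0.073 (adjusted p = 0.807). The trametinib value of 0.17 ± 0.073 was at the threshold (adjusted p = 0.0496), where the median of all genes was 0.11. It no longer passed after rescaling (0.06), without any of the 3 untreated libraries (0.15, 0.19 and 0.18), without trametinib replicate 2 (0.14) or 3 (0.13), without any of 12 libraries of other groups (0.17 each), or with a pseudocount of 0.1, no filter on low values, no trend in the variance model or a fit of the 6 h libraries alone (0.17 to 0.18).

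**Figure D4:**
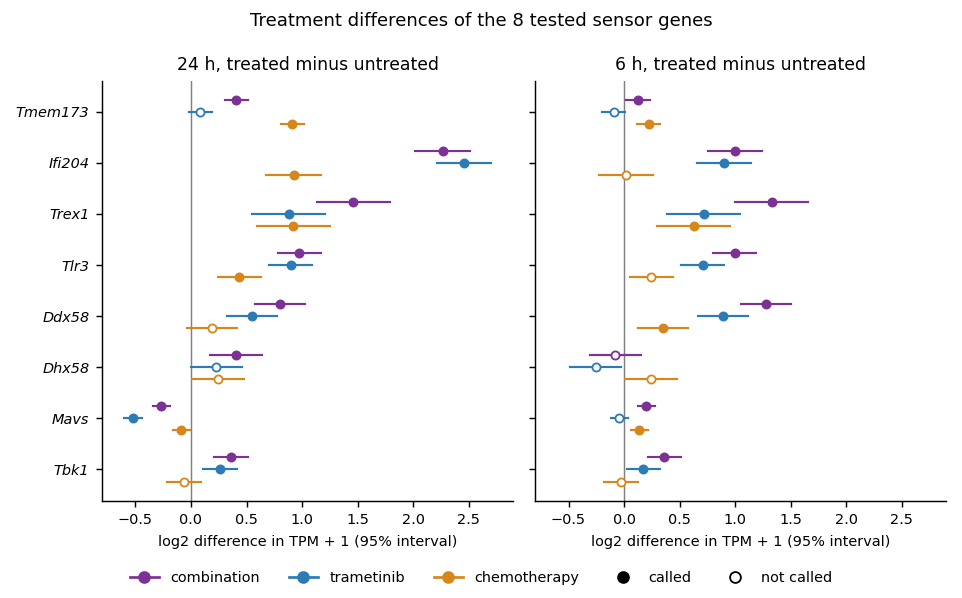
Log2 differences in TPM + 1 between treated and untreated cells for the 8 tested genes at 24 h and 6 h, with 95% intervals, for combination, trametinib and chemotherapy (filled points passed the test). Ifi204 at 24 h reaches 2.46 with trametinib, Tmem173 has its highest value of 0.91 with chemotherapy, and Mavs lies below 0 in all 3 treatments of 24 h.

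Counted over the 8 tested genes, the combination changed 8 at 24 h (7 higher, and Mavs lower), where 63.4% of all tested genes passed, 39.6% higher and 23.8% lower. At 6 h it changed 7, all higher, where 58.4% passed, 38.6% higher and 19.8% lower. Trametinib changed 6 at 24 h (5 higher and Mavs lower), beside 58.7% of all tested genes (32.4% higher and 26.3% lower), and 5 at 6 h, all higher, beside 54.8% (35.9% higher and 18.9% lower). Chemotherapy changed 5 at 24 h (4 higher and Mavs lower), beside 59.2% (34.9% higher and 24.3% lower), and 4 at 6 h, all higher, beside 24.8% (11.3% higher and 13.5% lower). These counts and those of the later comparisons include Tlr3. That gene passed the filter only through treated groups, where it is high, so its differences are a description. Most genes of the cell line passed in several of these comparisons, so these counts say little about the members by themselves. The 3 comparisons at each time share their untreated libraries. The median of all genes was 0.10 with the combination at 24 h, and at 6 h it was 0.11 with the combination and 0.11 with trametinib. After rescaling these medians were -0.01, -0.02 and 0.01, and 50.3%, 49.7% and 50.6% of the calls were higher, against 62.4%, 66.1% and 65.5% before.

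Trametinib added to chemotherapy changed 7 of the 8 genes at 24 h, where 53.5% of tested genes passed, 30.3% higher and 23.2% lower. Ifi204 (1.34 ± 0.12), Ddx58 (0.62 ± 0.11), Trex1 (0.54 ± 0.16), Tlr3 (0.54 ± 0.093) and Tbk1 (0.42 ± 0.073) were higher, and Tmem173 (-0.50 ± 0.05) and Mavs (-0.18 ± 0.037) were lower. Dhx58 gave 0.17 ± 0.11 (adjusted p = 0.22). At 6 h it changed 6, where 56% of all tested genes passed (39.7% higher and 16.4% lower), with a median of all genes of 0.13 that became -0.01 after rescaling. Ifi204 (0.98 ± 0.12), Ddx58 (0.93 ± 0.11), Tlr3 (0.75 ± 0.093), Trex1 (0.70 ± 0.16) and Tbk1 (0.39 ± 0.073) were higher and Dhx58 was lower. For Mavs the value was 0.06 ± 0.037 (adjusted p = 0.157), and rescaling turned it to -0.092, which passed. Tmem173 stood at -0.10 ± 0.05 (adjusted p = 0.112) and passed after rescaling (-0.25). Of the calls in this comparison 70.8% were higher, and 49.99% after rescaling.

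Chemotherapy added to trametinib changed 3 genes at 24 h, Trex1 (0.58 ± 0.16), Tmem173 (0.33 ± 0.05) and Mavs (0.26 ± 0.037), all higher, beside 49.3% of tested genes (31.4% higher and 18% lower). Ddx58 gave 0.25 ± 0.11 (adjusted p = 0.057) and passed with coding transcripts alone (0.39), without combination replicate 3 (0.35), and at an unmoved value without chemotherapy replicate 1 or trametinib replicates 2 or 3 of 6 h. Dhx58 (0.18 ± 0.11), Tbk1 (0.10 ± 0.073), Tlr3 (0.08 ± 0.093) and Ifi204 (-0.20 ± 0.12) did not pass. At 6 h it changed 5, beside 18.9% of tested genes (12.3% higher and 6.53% lower). Trex1 (0.61 ± 0.16), Ddx58 (0.39 ± 0.11), Tlr3 (0.29 ± 0.093), Mavs (0.24 ± 0.037) and Tmem173 (0.22 ± 0.05) were higher. Tbk1 (0.19 ± 0.073), Dhx58 (0.18 ± 0.11) and Ifi204 (0.10 ± 0.12) did not pass. Without trametinib replicate 2 the calls of Trex1 (0.52), Ddx58 (0.30) and Tlr3 ended and 2 members remained called, and Ddx58 also lost its call without trametinib replicate 1 (0.34) or combination replicate 3 (0.36). For this comparison and that of 24 h the higher share of calls was 65.4% and 63.6%, and 52.5% and 51.3% after rescaling.

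The combination was next set against the sum of the separate chemotherapy and trametinib effects on the log2 scale. At 24 h 4 of the 8 genes departed from that sum, beside 31.8% of all tested genes (16.2% higher and 15.6% lower). Ifi204 (-1.12 ± 0.16, adjusted p = 3.92e-05) and Tmem173 (-0.59 ± 0.07, adjusted p = 4.1e-06) were below it, and Mavs was above it (0.34 ± 0.052, adjusted p = 5.28e-05). Tlr3 was also below (-0.36 ± 0.13, adjusted p = 0.043), but that call ended without any of 10 of the 12 libraries of 24 h (-0.38 to -0.29), namely all but trametinib replicate 2 and chemotherapy replicate 1, and without untreated or combination replicate 1 of 6 h (-0.36). It also ended with no filter on low values and in a fit of the 24 h libraries alone. Trex1 (-0.34 ± 0.22), Dhx58 (-0.06 ± 0.16), Ddx58 (0.07 ± 0.15) and Tbk1 (0.17 ± 0.1) did not pass. At 6 h none of the 8 genes departed from the sum in limma, beside 0.0954% of tested genes (0.0874% higher and 0.00795% lower), and Tbk1 alone had an unadjusted p under 0.05 (0.0464). The 6 h values ran from -0.07 for Dhx58 to 0.22 for Tbk1, with Trex1 (-0.01), Tmem173 (-0.002), Ddx58 (0.04), Tlr3 (0.04), Ifi204 (0.08) and Mavs (0.11) between.

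**Figure D5:**
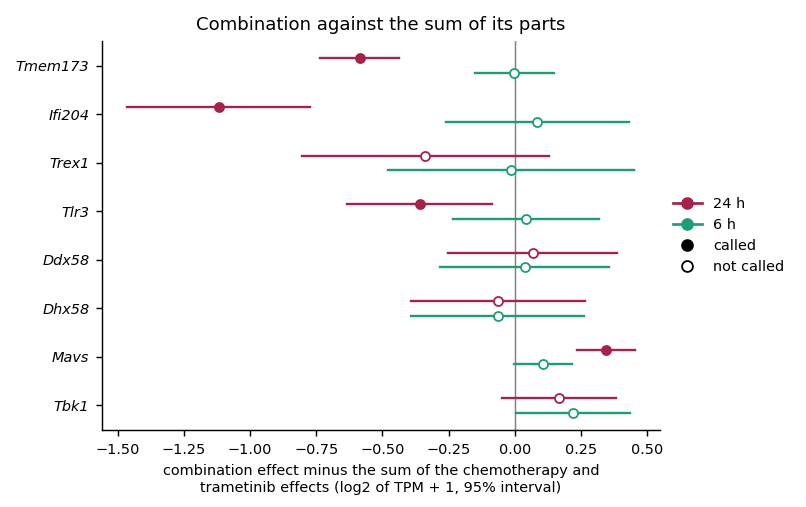
Combination effect minus the sum of the chemotherapy and trametinib effects on log2(TPM + 1) for the 8 tested genes at 24 h and 6 h, with 95% intervals (filled points passed the test). At 24 h Ifi204 (-1.12), Tmem173 (-0.59) and Tlr3 (-0.36) lie below the sum and Mavs (0.34) above it, while all 6 h values lie between -0.07 and 0.22.

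Effects at 24 h were compared with those at 6 h. The combination effect differed in 5 genes, beside 49.7% of tested genes (25.3% higher and 24.3% lower). The difference, 24 h minus 6 h, was positive for Ifi204 (1.26 ± 0.16), Dhx58 (0.49 ± 0.16) and Tmem173 (0.28 ± 0.07). It was negative for Ddx58 (-0.475 ± 0.15), whose combination effect was 0.80 at 24 h and 1.28 at 6 h. It was negative also for Mavs (-0.46 ± 0.052), whose combination effect was -0.27 at 24 h and 0.20 at 6 h. Tlr3, Tbk1 and Trex1 lay between -0.02 and 0.13 and did not pass. With coding transcripts alone Ddx58 (-0.21) and Dhx58 (0.24) no longer passed, and Dhx58 also lost its call without untreated replicate 1 of 6 h (0.36). The trametinib effect differed in 3 genes, beside 38.2% (15.9% higher and 22.3% lower), namely Ifi204 (1.56 ± 0.16), Dhx58 (0.49 ± 0.16) and Mavs (-0.48 ± 0.052). Dhx58 lost that call without untreated replicate 1 (0.36) or trametinib replicate 1 (0.42) of 6 h, and without trametinib replicate 2 of 6 h Ddx58 (-0.43) and Tmem173 (0.205) passed too, for 5 in all. Tmem173, at 0.18 ± 0.07 (adjusted p = 0.0529), also passed after rescaling (0.25) and without any of 4 other libraries (0.18 to 0.22). Ddx58 (-0.34 ± 0.15), Tlr3 (0.19 ± 0.13), Trex1 (0.16 ± 0.22) and Tbk1 (0.08 ± 0.1) did not pass. The chemotherapy effect differed in 3 genes, beside 45.1% (28.3% higher and 16.7% lower), namely Ifi204 (0.90 ± 0.16), Tmem173 (0.69 ± 0.07) and Mavs (-0.22 ± 0.052). Trex1 (0.29 ± 0.22), Tlr3 (0.19 ± 0.13), Dhx58 (0 ± 0.16), Tbk1 (-0.03 ± 0.1) and Ddx58 (-0.17 ± 0.15) did not pass. For the trametinib and chemotherapy effects 41.7% and 62.9% of the calls were higher, and 52.3% and 52.9% after rescaling. Untreated cells of 24 h differed from those of 6 h in 5 genes, beside 60.8% (29.4% higher and 31.4% lower), with Ddx58 and Ifi204 higher and Trex1, Tmem173 and Dhx58 lower. Mavs (-0.05 ± 0.037), Tbk1 (-0.12 ± 0.073) and Tlr3 (-0.15 ± 0.093) did not pass. The Dhx58 value was -0.27 ± 0.11 (adjusted p = 0.0443), and its call ended without untreated replicate 1 (-0.14) or 3 (-0.30) of 6 h, untreated replicate 2 or 3 of 24 h (-0.24 each), or combination replicate 1 of 6 h or 2 of 24 h (-0.27 each). It ended also with no filter on low values (-0.27) and with coding transcripts alone (-0.12).

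The sensors were set beside other genes of the pathway, in lists by role. Each count is given beside the share of all tested genes that passed. Against untreated cells at 24 h, 63.4% passed with the combination (39.6% higher and 23.8% lower), 58.7% with trametinib (32.4% higher and 26.3% lower) and 59.2% with chemotherapy (34.9% higher and 24.3% lower). Tested genes that reached 1 TPM in fewer than 3 untreated libraries passed the filter through treated groups, where they are high, and their rises over untreated cells are a description. They were Ifi203, Ifi205 and Mndal of the DNA sensor list, Oas1a, Oas1b, Oas1c, Oas3 and Oasl2 of the RNA sensor list, Usp18, Irf7 and Cxcl10. The counts and medians of the lists include them. They are 3 of the 15 tested genes of the DNA sensor list and 5 of the 26 of the RNA sensor list.

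Among 15 tested genes of the DNA sensor and HIN-200 list, the combination at 24 h raised 6 and lowered 3, beside 63.4% of all tested genes (median 0.07, with 0.10 over all genes). The smallest p among genes also expressed in untreated cells was that of Ifi211 (1.65 ± 0.073). Mndal (2.06), Ifi203 (2.26) and Ifi205 (1.06) had positive differences too, as genes tested only through treated groups, and all 4 are relatives of Ifi204. Mndal, Ifi203 and Ifi205 are among the genes counted as raised with each treatment at 24 h. Trametinib raised 7 and lowered 6, beside 58.7% (median 0.04, 0.04 over all genes), and chemotherapy raised 6 and lowered 1, beside 59.2% (median 0.10, 0.06 over all genes). Trametinib added to chemotherapy raised 7 and lowered 3, beside 53.5% (median 0.23, 0.03 over all genes), among them Xrcc5, a gene of the Ku complex that binds DNA ends (0.41 ± 0.06).

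RNA sensors and cofactors of the RIG-I-like receptors numbered 26 tested genes. With the combination at 24 h 12 rose and 4 fell, beside 63.4% (median 0.18, 0.10 over all genes). Eif2ak2, the gene of the RNA-activated kinase PKR, had the smallest p and averaged 50.5 TPM with the combination, 33.4 TPM with trametinib, 38.9 TPM with chemotherapy and 21.6 TPM in untreated cells (combination 1.19 ± 0.093). Atg12 (0.55 ± 0.048) and Dhx9 (0.81 ± 0.085) rose too. Oasl2, tested only through treated groups, averaged 1.66 TPM with the combination and 0.0744 TPM in untreated cells of 24 h. Trametinib raised 12 and lowered 3, beside 58.7% (median 0.16, 0.04 over all genes), with Nlrc5 (-1.13 ± 0.13) and Tomm70a (-0.51 ± 0.077) lower and Dhx9 (0.71 ± 0.085) higher. Chemotherapy raised 9 and lowered 2, beside 59.2% (median 0.12, 0.06 over all genes), with Atg12 (0.77 ± 0.048) and Eif2ak2 (0.82 ± 0.093) among those that rose and Prkra (-0.58 ± 0.046) among those that fell. At 6 h chemotherapy gave 1 higher and 7 lower of the 26, beside 24.8% of all tested genes, 11.3% higher and 13.5% lower (median -0.03, 0.01 over all genes), with Ddx3x (-0.51 ± 0.11), G3bp1 (-0.24 ± 0.054) and Dhx15 (-0.29 ± 0.066) lower and Prkra (0.42 ± 0.046) higher.

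Among 17 tested adaptors, kinases and interferon regulatory factors, 10 rose and 1 fell with the combination at 24 h, beside 63.4% of all tested genes (median 0.23, 0.10 over all genes). Traf2, an adaptor of death receptor and MAVS signalling, averaged 34.9 TPM with the combination, 23.8 TPM with trametinib, 24.3 TPM with chemotherapy and 11.8 TPM in untreated cells. Its rise was 1.48 ± 0.048 with the combination, 0.95 ± 0.048 with trametinib and 0.98 ± 0.048 with chemotherapy. Ripk1 (1.05 ± 0.072) and Myd88 (0.71 ± 0.083) also rose with the combination. Irf7, which reached 1 TPM in 2 untreated libraries, averaged 3.49 TPM with the combination and 0.981 TPM in untreated cells of 24 h. Trametinib raised 8 and lowered 2, beside 58.7% (median 0.18, 0.04 over all genes), and chemotherapy raised 10 and lowered 2, beside 59.2% (median 0.48, 0.06 over all genes), with Myd88 (0.87 ± 0.083), Tbkbp1 (0.86 ± 0.087) and Sike1 (0.61 ± 0.072) following Traf2. At 6 h the combination raised 9 and lowered 2, beside 58.4% (median 0.28, 0.11 over all genes), with Traf2 (0.50 ± 0.048), Ikbke, the gene of a TBK1-related kinase (1.06 ± 0.12), Ticam1, the TLR3 adaptor gene (0.71 ± 0.083), and Ripk1 (0.56 ± 0.072) higher.

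Nucleases and other limits on the ligand moved both ways. The combination at 24 h raised 4 and lowered 5 of 14, beside 63.4% of all tested genes (median 0.08, 0.10 over all genes). Banf1, whose product binds DNA in competition with cGAS, was lower with the combination (-1.02 ± 0.056), trametinib (-0.71 ± 0.056) and chemotherapy (-0.48 ± 0.056). Samhd1, a deoxynucleotide hydrolase gene, was higher with the combination (0.96 ± 0.11), and Rnaseh2b, a subunit gene of the enzyme that cleaves RNA in RNA-DNA hybrids, rose by 0.51 ± 0.053. Its partner Rnaseh2a fell with trametinib (-0.46 ± 0.039) and rose with chemotherapy (0.43 ± 0.039). The trametinib counts were 5 higher and 7 lower, beside 58.7% (median -0.25, 0.04 over all genes), and those of chemotherapy 7 higher and 2 lower, beside 59.2% (median 0.20, 0.06 over all genes).

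Genes of STING trafficking, regulation and cyclic dinucleotide uptake numbered 22 tested. The combination at 24 h raised 9 and lowered 4, beside 63.4% of all tested genes (median 0.04, 0.10 over all genes), with Stim1, a calcium sensor gene whose product retains STING (0.81 ± 0.065), Tmem203 (-0.87 ± 0.098) and the channel subunit gene Lrrc8d (0.51 ± 0.071) having the smallest p beside that of Usp18, an ISG15 protease gene tested only through treated groups. Trametinib raised 7 and lowered 7, beside 58.7% (median 0.08, 0.04 over all genes), with Rhbdf2 (-1.51 ± 0.11) and Nlrc3 (-0.94 ± 0.10) lower and the palmitoyltransferase gene Zdhhc7 (0.75 ± 0.071) higher. Chemotherapy raised 10 and lowered 3, beside 59.2% (median 0.17, 0.06 over all genes), with Tmem203 (-1.14 ± 0.098) and Rnf26 (-0.72 ± 0.075) lower and Stim1 (0.63 ± 0.065) and Nlrc3 (0.81 ± 0.10) higher. At 6 h the combination raised 10 and lowered 3, beside 58.4% (median 0.15, 0.11 over all genes), with the autophagy kinase gene Ulk1 higher (1.135 ± 0.082) and Slc19a1, the gene of a folate and cyclic dinucleotide carrier, lower (-1.34 ± 0.14). Of 8 tested genes for endosomal toll-like receptors and their handling, 3 rose and 2 fell with the combination at 24 h, beside 63.4% (median 0.06, 0.10 over all genes), the protease gene Ctsl (-0.64 ± 0.058) with the smallest p, and Tlr7, Tlr8, Tlr9 and Tlr13 were below the filter.

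Of 9 output genes of the pathway, Cxcl10 alone reached the filter, through treated groups only. It stood at 11.2 ± 1.6 TPM with the combination at 24 h, 0.612 ± 0.12 TPM with trametinib, 2.85 ± 0.37 TPM with chemotherapy and 0.414 ± 0.037 TPM in untreated cells. By group means Trex1 and Dhx58 had the same order of groups at 24 h, with trametinib and chemotherapy libraries overlapping for both. Tmem173 was highest with chemotherapy and Ifi204 with trametinib. Ifnb1, the interferon beta gene, reached 0.18 TPM at most, Ccl5 reached 0.433 TPM, and Ifna4, Ifnl2 and Ifnl3 were listed at 0 in every library.

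For the 4 genes with the widest range of group means, the 3 genes with the most similar profile were found by Pearson's r of log2(TPM + 1) over the 24 libraries, which share their groups. They are a description of these libraries. For Ifi204 they were the complement protease gene C1s1 (0.983), Mgarp (0.982) and Tmem176b (0.98). C1s1 averaged 129.6 TPM with the combination at 24 h, 87.8 TPM with trametinib, 28.7 TPM with chemotherapy and 8.702 TPM in untreated cells. For Trex1 they were Calhm2 (0.951), Spc24 (0.939) and Tsen34 (0.933), for Tlr3 Oat (0.969), Pcyt1a (0.965) and Aamdc (0.958), and for Ddx58 Neil3 (0.963), Coro1b (0.962) and Pqlc3 (0.956).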

How the data were processed

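Poly(A) RNA of 24 LLC1 samples was sequenced from stranded libraries, per the labels' protocols. The deposited values are TPM per transcript, for 82934 transcripts. The authors demultiplexed reads with bcl2fastq 2.17.1.14 and quantified them with kallisto 0.45 on GRCm38, per the submitters' processing notes, with the version of the transcript set not given in the sources used here. TPM sums to the same total in each library, so it keeps no depth, and a gene's TPM falls when others rise. The design text names DESeq2, a count model, which TPM does not allow, so limma was used.

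TPM was summed per gene with GENCODE M21 (79662 transcripts in 28328 genes; 3272 unmatched transcripts, 4.45% to 5.98% of a library, were left out). With limma 3.58.1 in R 4.3.3, log2(TPM + 1) of genes that reached 1 TPM in 3 or more libraries was fitted with 1 mean for each of 8 groups (16 residual degrees of freedom, moderated variances with a trend), in 16 comparisons, two-sided, adjusted over 12581 genes. The steps were tested on simulated data. Shared sequence was counted as 31-base stretches of a gene's transcripts also found in those of other genes. Alternatives were other pseudocounts, filters, scaling, variance models, subsets, thresholds and a replicate block, each library left out in turn and, added after seeing the data, protein-coding transcripts alone. Values are given for all 8 tested members in each comparison (Cgas and Ifih1 were not tested), and from each other list genes were named among the 4 called ones with the smallest p. Atrip, Gm45542 and Dhx58os were named after their overlap was seen. The members and lists were chosen with earlier results of these data known. Python 3.11.15 made the tables and figures.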

Additional observations from a re-analysis of the deposited data

Results flagged for a closer look

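The treatment effect differed between 24 h and 6 h for these genes, as log2 effects at 24 h minus those at 6 h, tested in limma. For the combination the differences were 1.26 for Ifi204 (adjusted p = 3.95e-06), 0.49 for Dhx58 (adjusted p = 0.0144), 0.28 for Tmem173 (adjusted p = 0.00237), -0.475 for Ddx58 (adjusted p = 0.0139) and -0.46 for Mavs (adjusted p = 6.84e-07). For trametinib they were 1.56 for Ifi204 (adjusted p = 6.01e-07), 0.49 for Dhx58 (adjusted p = 0.019) and -0.48 for Mavs (adjusted p = 9.15e-07). For chemotherapy they were 0.90 for Ifi204 (adjusted p = 0.000192), 0.69 for Tmem173 (adjusted p = 2.92e-07) and -0.22 for Mavs (adjusted p = 0.00174). The combination calls of Dhx58 and Ddx58 ended with coding transcripts alone. Dhx58 also lost its combination and trametinib calls when single libraries were left out. Mavs showed the same direction in all 3 treatments, which share their untreated libraries. The Ddx58 effect of the combination was smaller at 24 h, and its untreated level was higher at 24 h (13.4 TPM) than at 6 h (7.10 TPM). Untreated Ifi204 was also higher at 24 h (6.25 TPM) than at 6 h (3.50 TPM), while its combination effect was larger at 24 h. A link between untreated level and effect was not tested.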

How the results depend on the processing

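Of 128 values (8 genes in 16 comparisons), 76 passed the test, and 63 of these passed with each of the 24 libraries left out in turn. Under the Bonferroni rule of the series text (adjusted p under 0.1) 35 passed. At 24 h the number of members called was then 6 for the combination, 3 for trametinib and 2 for chemotherapy. It was 2 for the combination against chemotherapy, 2 against trametinib and 3 for the departure from the sum. At 6 h it was 4 for the combination, 3 for trametinib, 0 for chemotherapy, 3 for the combination against chemotherapy and 1 against trametinib. For effects at 24 h minus 6 h it was 2 for the combination, 2 for trametinib and 1 for chemotherapy. For untreated cells at 24 h against 6 h it was 1. With protein-coding transcripts alone, 5 members passed for the combination against trametinib at 24 h and 3 for the combination effect at 24 h minus 6 h. Dhx58 turned to 0.24 (combination against untreated cells) and 0.035 (against chemotherapy) at 6 h. After median-ratio rescaling Tmem173 turned to -0.019 (combination against untreated cells) and Mavs to -0.092 (against chemotherapy) at 6 h. The cause was not tested. With 1 library left out, the members called ranged from 2 to 5 for the combination against trametinib at 6 h and from 2 to 5 for the trametinib effect at 24 h minus 6 h. Values that had not passed changed sign 55 times. The alternatives gave 4288 values in all, a number that includes those of values that had passed.

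Replicate numbers showed no general pairing of the samples, though 3 libraries per group cannot settle this. Same-numbered libraries deviated from their group means with correlations of -0.32 to 0.34. Of 33 pairs, 9 were over 0.1, and 11 correlated best with their own number. For the combination against untreated cells at 24 h, same-numbered pairs gave 0.218, 0.048 and 0.247, each higher than with any other replicate number. With the number as a replicate block, the members called at 24 h were 8 for the combination, 6 for trametinib, 4 for chemotherapy, 7 for the combination against chemotherapy, 3 against trametinib and 3 for the departure from the sum. At 6 h they were 7, 4, 4, 6, 5 and 0 for the same comparisons. The blocked counts were 5, 3 and 3 for combination, trametinib and chemotherapy effects at 24 h minus 6 h, and 4 for untreated cells at 24 h against 6 h. The calls that ended under the block were Tbk1 (trametinib at 6 h), Mavs (chemotherapy at 24 h), Tlr3 (departure from the sum at 24 h) and Dhx58 (untreated cells at 24 h against 6 h). TPM gives no depth, so the counting error of low genes (Cgas, Ifih1, Tlr3 and Dhx58) is unknown.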
